A study of Homo sapiens with 4 samples.

Results

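The genes described here are 48 genes of protein folding, stress sensing and protein degradation in the endoplasmic reticulum (ER), taken by their symbols from a table of 23362 genes. They were grouped by role into 16 chaperones and folding cofactors, 12 enzymes of disulfide bond formation, 8 stress sensors and their regulators, and 12 degradation factors. The RNA, enriched for poly(A), came from MKN28, an established line of human gastric adenocarcinoma, and each of 4 groups was represented by 1 library. MKN28 cells had been infected with a retroviral tet-on vector, in which doxycycline switches on the insert, and selected with G418 and puromycin. The insert was luciferase in the control (Luc) and KIAA1324 in WT. In 3NQ it was KIAA1324 with glutamine in place of asparagine at its 3 N-glycosylation sites. In ΔTM it was KIAA1324 without its transmembrane domain. Both KIAA1324 and its mutants had been cloned into a 3HA vector, and the virus carried 3HA-tagged KIAA1324. Whether each line was a single clone, and whether and for how long doxycycline was given before RNA was taken, is not given in the sources used here.

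Since each group had a single library, the spread between replicates is unknown for every value given here, and nothing could be tested. The values are FPKM (read fragments scaled to transcript length and to the number of mapped fragments), which the authors estimated with Cufflinks, so that levels of different genes can be set beside each other per length. Ratios were computed as log2(FPKM + 1) differences, which understate the change of low genes, and a difference of 1.5-fold or more counted as a call. The background is the 11729 gene symbols that reached an FPKM of 1 in some library. Of the 48 genes, 46 passed this filter, and all 46 had an FPKM of at least 1 in every library. DERL1 and DERL3, which form channels that pull misfolded proteins out of the ER, did not pass. DERL1 was listed between 0.213 and 0.321 and DERL3 between 0 and 0.0153. Whether these low values are failed estimates was not tested.

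KIAA1324 itself (ENSG00000116299, chromosome 1 of GRCh37 from 109656301 to 109749401) stood at 2.86 FPKM in Luc, and at 11185 and 8197 in WT and 3NQ. It was listed at 0 in the ΔTM library, which is therefore called the library labelled ΔTM. Whether this 0 is a failed estimate, and whether the insert was expressed in that library, is not known. The 5 epithelial markers EPCAM, CDH1, KRT8, KRT18 and KRT19 had FPKM between 233 and 8501. Their sum was 13450 in Luc and 7741 in WT, with 10125 in 3NQ and 11708 for the library labelled ΔTM, and KRT8 (0.53-fold) and KRT18 (0.57-fold) were called lower than Luc in WT. Their part in the results was not tested. Of 4 stromal and 4 leukocyte markers only COL1A1 and CD68 reached an FPKM of 1 in every library. The table gives no read counts, so that the depth is unknown.

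Proteins that enter the secretory pathway fold in the ER, where chaperones hold them, lectins read their N-glycans and oxidoreductases build their disulfide bonds. When unfolded proteins accumulate, the sensors ATF6, IRE1 (gene ERN1) and PERK (gene EIF2AK3) start the unfolded protein response. ATF6 and the spliced form of XBP1 then switch on the genes of chaperones and degradation factors, while PERK slows translation and favours ATF4. The study follows KIAA1324 together with GRP78, the product of HSPA5, the main ER chaperone of the HSP70 family.

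The differences between libraries are described by the role of the gene, and differences between roles were not tested. Chaperones and several disulfide enzymes were higher than Luc in 3NQ and likewise in the library labelled ΔTM, and most of them were near the Luc level in WT. In WT, a smaller set was higher than in Luc, among them the sensor genes ERN1 and EIF2AK3. None of the 46 genes was called lower than Luc in any library. Over all genes tested, 3.30% were called lower in WT, 2.54% in 3NQ and 1.57% for the library labelled ΔTM. For 46 genes, the lack of lower calls is therefore near the share of all genes.

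Compared to Luc, 22 of the 46 genes were called higher in 3NQ, against a background of 1.72% of all genes called higher and 2.54% called lower. For the library labelled ΔTM, 23 of the 46 were called higher, against 1.53% of all genes higher and 1.57% lower. In WT, 7 of the 46 were called higher, against 3.35% of all genes higher and 3.30% lower. The 3 comparisons share the Luc library and are not independent of each other. For WT, the 46 log2 ratios had a median of 0.20, compared to −0.0049 for all genes. For 3NQ the medians were 0.55 and −0.038, and for the library labelled ΔTM 0.55 and −0.060. Over all genes, higher calls made up 49.5% of the calls in the library labelled ΔTM as deposited and 59.9% after rescaling the FPKM by the median of ratios. With this rescaling, 7 of the 46 genes were called higher in WT, 24 in 3NQ and 23 in that library.

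**Figure D1:**
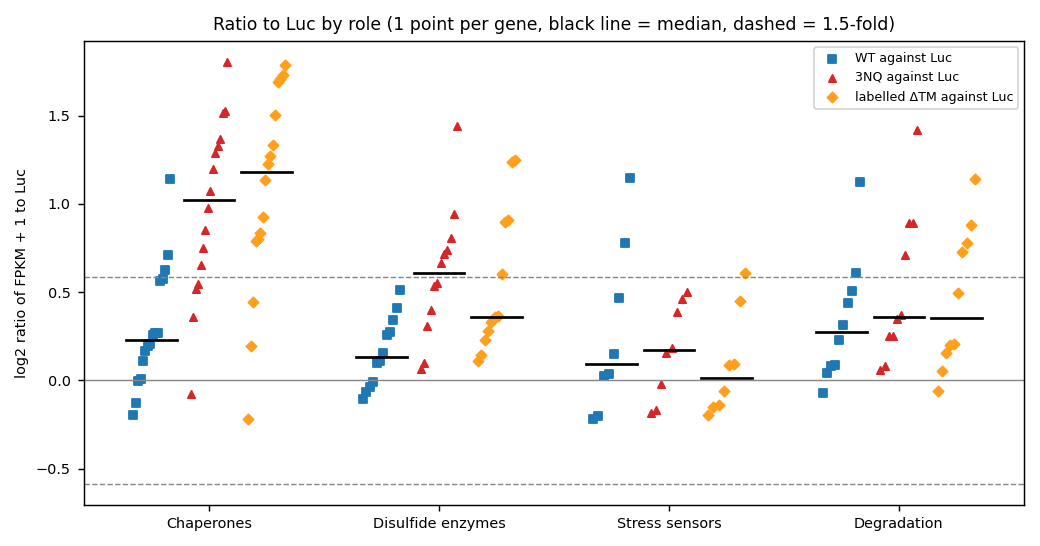
The plot shows the log2 ratio of FPKM + 1 to Luc for each gene (1 point per gene) in WT, 3NQ and the library labelled ΔTM, by role, with the median as a black line and 1.5-fold as dashed lines. The chaperones have medians of 0.23 in WT, 1.02 in 3NQ and 1.18 for the library labelled ΔTM, whereas the medians of the sensors are 0.092, 0.17 and 0.015.

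By order of FPKM, 3NQ and the library labelled ΔTM both lay above both Luc and WT for 29 of the 46 genes, compared to 10.0% of all genes tested. The order includes the Luc value and is thus not separate from the calls against Luc. By role, this order held for 13 of 16 chaperones, 8 of 12 disulfide enzymes, 7 of 10 degradation factors and 1 of 8 sensors. The summed FPKM of the chaperones was 2547 in Luc and 2820 in WT, with 4961 in 3NQ and 5923 for the library labelled ΔTM. That of the sensors differed less, at 291, 320, 313 and 311.

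Promoters of ER stress genes are known for the ER stress response elements, which bind NF-Y together with ATF6 or XBP1. ERSE consists of CCAAT and CCACG with 9 bases between them, and ERSE-II of ATTGG and CCACG with 1 base between them. Both strands of the RefSeq promoter windows (GRCh38.p14, from 250 bases before to 50 bases after each start) were searched for exact matches. Of the 48 genes, 42 matched an entry, ERO1L and ERO1LB by their RefSeq symbols ERO1A and ERO1B. PDIA3, DNAJC1, FKBP14, DERL1, DERL3 and UFD1L had none. ERSE stood in the windows of 8 of the 42 genes (HSPA5, HSP90B1, CALR, CANX, CRELD2, PDIA6, ERO1LB and XBP1), compared to 0.0916% of all 27305 genes in the table. ERSE-II stood in 3 (HYOU1, SDF2L1 and HERPUD1), compared to 0.0696% of all genes. These elements were first described in promoters of such genes, so that their presence is background and not a result of these libraries. Stretches are shown for the 10 genes that have an element and were called higher than Luc in 3NQ or the library labelled ΔTM, and for XBP1, which has one and was called in no library. They are read in the direction of the gene, and capitals mark the whole ERSE or ERSE-II, on either strand.

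HSPA5 (chr9:125241371-125241429, minus strand): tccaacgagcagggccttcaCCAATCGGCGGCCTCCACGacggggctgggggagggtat

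HSP90B1 (chr12:103930196-103930359, plus strand): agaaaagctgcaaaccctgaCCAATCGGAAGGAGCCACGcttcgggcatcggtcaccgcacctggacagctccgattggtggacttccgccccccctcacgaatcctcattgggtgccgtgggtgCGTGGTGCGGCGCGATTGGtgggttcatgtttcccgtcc

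CALR (chr19:12938364-12938422, plus strand): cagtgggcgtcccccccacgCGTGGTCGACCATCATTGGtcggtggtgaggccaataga

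CANX (chr5:179698758-179698816, plus strand): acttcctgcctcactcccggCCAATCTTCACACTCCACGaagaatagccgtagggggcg

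CRELD2 (chr22:49918534-49918592, plus strand): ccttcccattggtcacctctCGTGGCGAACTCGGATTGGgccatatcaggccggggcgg

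PDIA6 (chr2:10812833-10812891, minus strand): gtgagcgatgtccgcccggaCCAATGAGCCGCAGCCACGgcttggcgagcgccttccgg

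ERO1LB (chr1:236282163-236282208, minus strand): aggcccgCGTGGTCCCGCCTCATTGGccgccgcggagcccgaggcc

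HYOU1 (chr11:119057254-119057413, minus strand): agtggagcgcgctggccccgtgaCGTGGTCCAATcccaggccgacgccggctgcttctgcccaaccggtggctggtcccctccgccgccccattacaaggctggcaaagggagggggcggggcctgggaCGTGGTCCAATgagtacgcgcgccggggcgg

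SDF2L1 (chr22:21642094-21642144, plus strand): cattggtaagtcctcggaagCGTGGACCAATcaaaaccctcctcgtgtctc

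HERPUD1 (chr16:56932005-56932055, plus strand): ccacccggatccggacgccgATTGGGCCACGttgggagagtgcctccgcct

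XBP1 (chr22:28800583-28800641, minus strand): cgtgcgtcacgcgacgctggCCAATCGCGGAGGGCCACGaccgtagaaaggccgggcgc

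The element began 66 bases before the RefSeq start in HSPA5, 80 in CRELD2 and 52 in XBP1. HSP90B1 held an ERSE on each strand, 194 and 89 bases before the start, and HYOU1 held 2 copies of ERSE-II, 185 and 79 bases before it. Another element of this response, UPRE (TGACGTGG), stood in the windows of HYOU1, TXNDC5, TXNDC11, DNAJC10, UBE2J1 and VCP, compared to 0.927% of all genes. In HYOU1 it overlaps the ERSE-II that is farther from the start. A match says only that these letters are in the window.

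For the 11 genes with ERSE or ERSE-II, the median ratio to Luc was 1.20-fold in WT, 2.29-fold in 3NQ and 2.38-fold for the library labelled ΔTM. In comparison, the 31 genes whose windows hold neither had medians of 1.15-, 1.37- and 1.26-fold. Of the 11, 2 were called higher than Luc in WT, 9 in 3NQ and 10 for the library labelled ΔTM. Of the 31, 5 were called higher in WT, 12 in 3NQ and 12 for the library labelled ΔTM. Among all genes tested, 3.35%, 1.72% and 1.53% were called higher in the same order. Genes with and without an element were thus both called higher more often than all genes in each of these libraries. DNAJB9, DNAJC3 and MANF were among the highest in 3NQ although their windows hold neither element. Of the genes with an entry, 7 of 14 chaperones and 2 of 11 disulfide enzymes had an element. The same held for 1 of 8 sensors and 1 of 9 degradation factors. The split by element thus overlaps the split by role, and their separate parts were not tested.

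**Figure D2:**
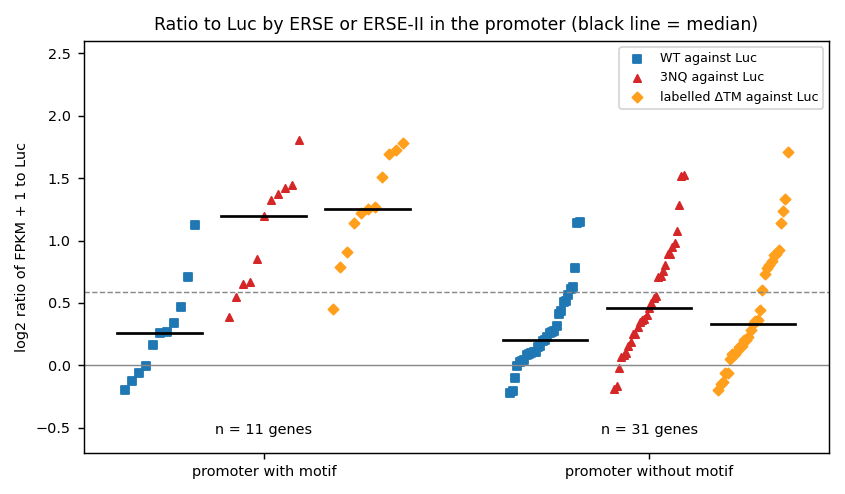
The plot shows the log2 ratio of FPKM + 1 to Luc in WT, 3NQ and the library labelled ΔTM for the 11 genes with ERSE or ERSE-II in the promoter window and the 31 without (1 point per gene, black line for the median, dashed line for 1.5-fold). The medians of the genes with and without an element are 1.20 and 0.46 in 3NQ, and 0.26 and 0.20 in WT.

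Among the chaperones, 12 of 16 were called higher than Luc in 3NQ, 13 in the library labelled ΔTM and 3 in WT. The shares of all genes called higher were 1.72%, 1.53% and 3.35% in the same order. HSPA5 (ENSG00000044574, chromosome 9 of GRCh37, 127997132 to 128003609, minus strand), the chaperone whose ERSE is shown above, stood at 318 FPKM in Luc, against 521 in WT, 1114 in 3NQ and 1028 for the library labelled ΔTM. It was thus lowest in Luc, intermediate in WT and highest in 3NQ and the library labelled ΔTM, which lay close together. Its ratio to Luc was 1.64-fold in WT, 3.49-fold in 3NQ and 3.22-fold for the library labelled ΔTM, and only 19 of the 11729 genes had a higher ratio in 3NQ.

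The cofactors of HSPA5 were high in the same libraries. HYOU1, which exchanges its nucleotide, had 138 FPKM in Luc and 165 in WT, with 358 in 3NQ and 393 for the library labelled ΔTM. SIL1, the other nucleotide exchange factor, had 30.8, 37.3, 66.0 and 55.9 in the same order. For both genes WT was near Luc, with 3NQ and the library labelled ΔTM above both.

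The J-domain partners of HSPA5 differed from one another. DNAJB11 had 90.6 FPKM in Luc, against 104 in WT, 179 in 3NQ and 201 for the library labelled ΔTM. DNAJC3, also an inhibitor of the kinase PERK, had 25.9, 40.6, 76.0 and 66.8. DNAJB9, a partner that hands clients to degradation, had 13.0, 29.8, 39.2 and 25.5, so that WT lay above the library labelled ΔTM. DNAJC1 differed least, at 5.73, 5.75, 5.38 and 4.77, and was the lowest chaperone of all.

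HSP90B1 (GRP94), the HSP90 of the ER, had 315 FPKM in Luc and 275 in WT, with 570 in 3NQ and 737 for the library labelled ΔTM. WT was thus the lowest library for this gene, with a log2 ratio to Luc of −0.20. SDF2L1, a partner of the J-domain proteins, had 36.1, 43.6, 92.0 and 127, and its log2 ratio of 1.78 in the library labelled ΔTM was the largest of the 46 genes there. MANF and CRELD2 encode proteins that are secreted under ER stress. MANF had 18.1 FPKM in Luc, against 27.2 in WT, 45.7 in 3NQ and 61.5 for the library labelled ΔTM, and CRELD2 had 14.8, 14.8, 35.4 and 51.5. All 4 genes were highest in the library labelled ΔTM, and CRELD2 did not differ between Luc and WT to 3 digits. CRELD2 overlaps ALG12 on the opposite strand, which had 10.1, 10.5, 12.6 and 12.7.

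The lectin chaperones CALR and CANX, which hold glycoproteins by their trimmed N-glycans, differed in size. CALR, the most abundant of the 46 genes in Luc, had 757 FPKM in Luc and 693 in WT, with 1107 in 3NQ and 1830 for the library labelled ΔTM. Its log2 ratio to Luc was 0.55 in 3NQ, just below the threshold, and 1.27 in the library labelled ΔTM. CANX had 249, 280, 392 and 431, and PPIB, a prolyl isomerase, had 480, 518, 809 and 838. Both genes were called higher in 3NQ and likewise in the library labelled ΔTM. The other prolyl isomerases, FKBP2 and FKBP14, reached 1.5-fold in no library. FKBP14 had 6.94 FPKM in Luc, against 10.8 in WT, 10.4 in 3NQ and 8.09 for the library labelled ΔTM, with a log2 ratio of 0.58 in WT.

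**Figure D3:**
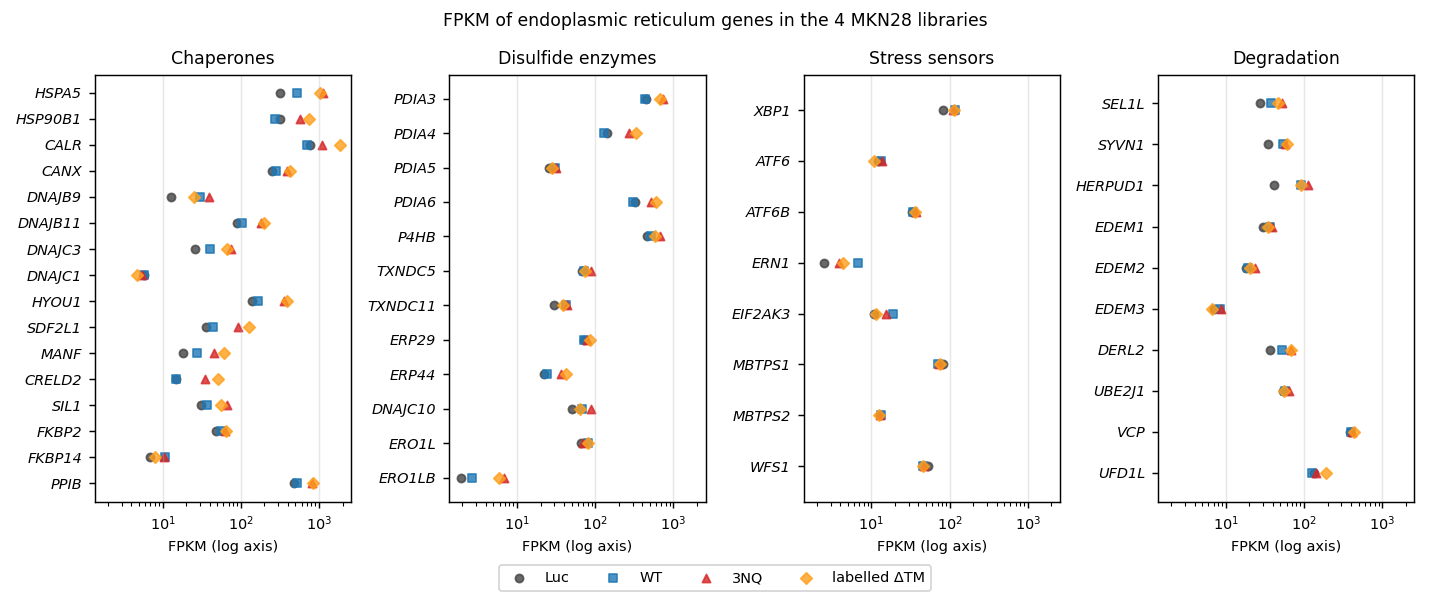
The plot shows the FPKM of the 46 genes on a log axis, by role, in Luc, WT, 3NQ and the library labelled ΔTM (1 point per library). For HSPA5, HYOU1, SDF2L1 and CRELD2 the points of 3NQ and the library labelled ΔTM stand apart from those of Luc and WT, whereas for ERN1 the WT point is the highest, at 6.68.

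Among the disulfide enzymes, 6 of 12 were called higher than Luc in 3NQ, 5 in the library labelled ΔTM and none in WT. The shares of all genes called higher were 1.72%, 1.53% and 3.35% in the same order. For 12 genes, the lack of calls in WT is near that share. ERO1LB, an oxidase that recharges the protein disulfide isomerases, had 1.91 FPKM in Luc and 2.69 in WT, with 6.90 in 3NQ and 5.92 for the library labelled ΔTM. Its log2 ratio of 1.44 in 3NQ was the largest of the role, although its level was the lowest. The more abundant oxidase ERO1L had 66.0, 80.0, 69.1 and 80.4 and was called in no comparison, so that the oxidases differed from each other.

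Of the isomerases, PDIA4 had 140 FPKM in Luc, against 131 in WT, 271 in 3NQ and 332 for the library labelled ΔTM. PDIA6 had 323, 309, 512 and 607, and PDIA3, the partner of the lectin chaperones, had 447, 436, 746 and 679. All 3 were called higher in 3NQ, as they were in the library labelled ΔTM, and lay slightly below Luc in WT. P4HB, the classical protein disulfide isomerase, had 466, 519, 676 and 586 and reached 1.5-fold in no library. PDIA5, TXNDC5 and TXNDC11 did not reach it either, with log2 ratios to Luc between 0.097 and 0.55.

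ERP44, which holds unassembled proteins back by their thiols, had 22.1 FPKM in Luc and 23.9 in WT, with 37.0 in 3NQ and 42.0 for the library labelled ΔTM. DNAJC10, a reductase that prepares proteins for degradation, had 50.2, 66.9, 88.6 and 64.8 and was called higher in 3NQ alone of the 3 libraries. ERP29, a family member without a redox-active site, had 72.5, 72.2, 77.8 and 85.0, so that its libraries lay close together.

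Among the 8 sensors and regulators, 2 were called higher than Luc in WT, none in 3NQ and 1, ERN1, in the library labelled ΔTM. The shares of all genes called higher were 3.35%, 1.72% and 1.53% in the same order. For 8 genes, the lack of calls in 3NQ is near that share. ERN1 (chromosome 17 of GRCh37 from 62120353 to 62207504), which encodes the kinase and RNase IRE1, had 2.46 FPKM in Luc, against 6.68 in WT, 3.90 in 3NQ and 4.27 for the library labelled ΔTM. EIF2AK3 (chromosome 2 from 88856259 to 88927094), which encodes PERK, had 10.7, 19.1, 15.1 and 11.5. Both genes were highest in WT, with log2 ratios to Luc of 1.15 and 0.78. ERN1 rests on low values: with a pseudocount of 5, its ratio no longer reached 1.5-fold in the library labelled ΔTM (0.31).

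XBP1, the most abundant of this role, had 83.5 FPKM in Luc and 116 in WT, with 109 in 3NQ and 114 for the library labelled ΔTM. These 3 libraries lay close to each other and above Luc, with log2 ratios between 0.39 and 0.46, below the threshold. IRE1 splices the XBP1 mRNA, and an FPKM per gene does not separate the spliced from the unspliced form. ATF6 had 12.0, 13.4, 13.8 and 10.7, and ATF6B had 33.5, 34.4, 37.4 and 35.7. Activation of ATF6 is a cleavage of the protein, which these values do not show. The proteases that cleave it, MBTPS1 and MBTPS2, and WFS1, a membrane protein that restrains ATF6, had log2 ratios between −0.22 and 0.025 in the 3 comparisons with Luc.

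Among the degradation factors that passed the filter, 4 of 10 were called higher than Luc in 3NQ, 4 in the library labelled ΔTM and 2 in WT. The shares of all genes called higher were 1.72%, 1.53% and 3.35% in the same order. HERPUD1, a scaffold of the ubiquitin ligase complex, had 41.2 FPKM in Luc, against 90.9 in WT, 112 in 3NQ and 91.8 for the library labelled ΔTM. Its level in WT was thus as high as in the library labelled ΔTM. SYVN1 (HRD1), the ligase itself, had 35.0, 53.9, 57.8 and 60.7, with WT near 3NQ and the library labelled ΔTM as well. With a pseudocount of 5, SYVN1 (0.56) and the chaperone DNAJC3 (0.56) no longer reached 1.5-fold in WT.

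SEL1L, the adaptor that stabilises this ligase, had 27.4 FPKM in Luc and 37.4 in WT, with 51.7 in 3NQ and 46.1 for the library labelled ΔTM. DERL2 had 36.7, 52.7, 69.0 and 68.6. Both were called higher in 3NQ and also in the library labelled ΔTM, with WT between Luc and these. DERL2 overlaps MIS12 on the opposite strand, which had 13.7 in Luc and in WT, 17.7 in 3NQ and 21.9 for the library labelled ΔTM. Since the kit is not stated to keep the strand, it is not known how reads were shared between such neighbours, and their part in the DERL2 value was not tested.

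The mannosidase-like proteins EDEM1, EDEM2 and EDEM3, which mark glycoproteins for degradation, were called in no comparison, with log2 ratios to Luc between −0.058 and 0.37. The conjugating enzyme UBE2J1 and the ATPase VCP, which extracts ubiquitinated proteins, were not called either. VCP was the most abundant of this role, with 383 FPKM in Luc, against 394 in WT, 406 in 3NQ and 440 for the library labelled ΔTM. Its cofactor UFD1L had 135, 128, 140 and 190 and lay highest in the library labelled ΔTM, with a log2 ratio of 0.50.

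The comparison of WT with 3NQ uses no Luc value, but it shares its libraries with the comparisons with Luc and is not independent of them. By design, the inserts differ in the N-glycosylation sites of KIAA1324. With 1 library each, these sites cannot be told apart from other differences between the lines or libraries. Of the 46 genes, 16 were called lower in WT than in 3NQ, where 1.53% of all genes tested were called lower. Only ERN1 was called higher, where 2.87% of all genes were called higher. By role, 11 of 16 chaperones and 5 of 12 disulfide enzymes were called lower in WT, and no sensor and no degradation factor was. For 8 sensors and 10 degradation factors, this lack of lower calls is near the share of all genes. All 10 degradation factors had a log2 ratio below 0. The median log2 ratio was −0.76 for the chaperones, −0.39 for the disulfide enzymes and −0.15 for the degradation factors, while that of all genes tested was 0.025. The sensors had a median of 0.0063, which turned to −0.022 after rescaling by the median of ratios and to −0.018 by the upper quartile.

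CRELD2 had the lowest ratio of WT to 3NQ, a log2 ratio of −1.20 at 14.8 against 35.4 FPKM. It was followed by HYOU1 (−1.11), ERO1LB (−1.10), HSPA5 (−1.10), SDF2L1 (−1.06), HSP90B1 (−1.05) and PDIA4 (−1.05), and these 7 genes were among the 50 lowest ratios of all 11729 genes. All 7 were thus at less than 0.5-fold of their level in 3NQ. KIAA1324 RNA, in contrast, was higher in WT than in 3NQ, by a log2 ratio of 0.45. ERN1 was at 1.57-fold of its level in 3NQ, and with a pseudocount of 5 its log2 ratio was 0.39, below the threshold.

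**Figure D4:**
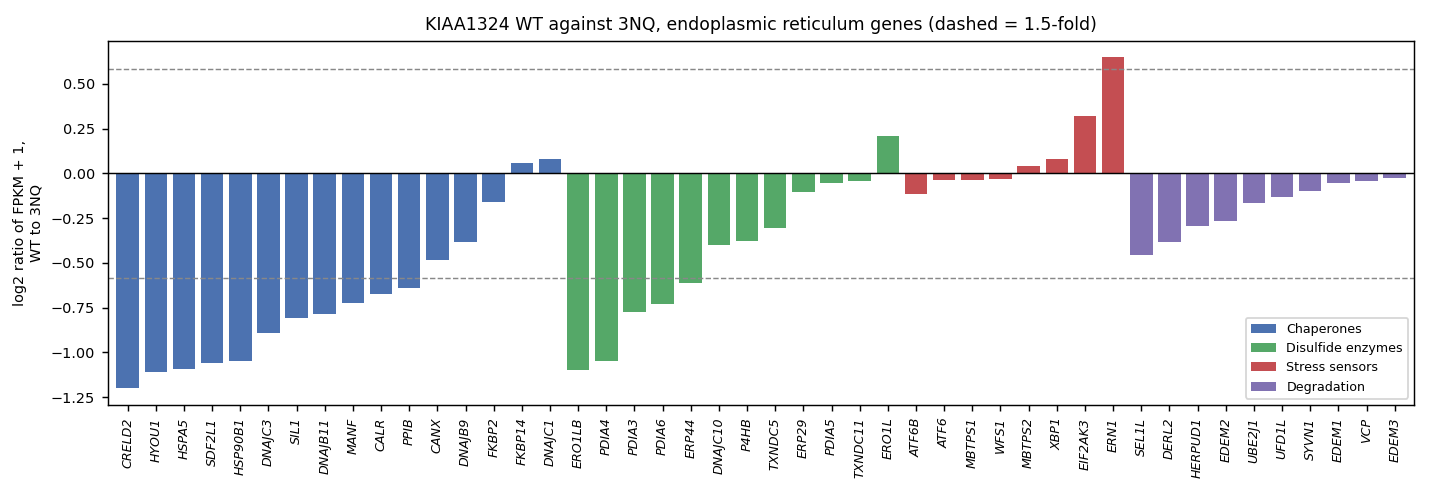
The bars show the log2 ratio of FPKM + 1 in WT to that in 3NQ for each of the 46 genes, ordered within each role, with dashed lines at 1.5-fold. The lowest bar is CRELD2 at −1.20 and the highest is ERN1 at 0.65, and no bar of the degradation factors reaches the dashed line.

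Set against each other, 3NQ and the library labelled ΔTM were near balance over the 46 genes. The FPKM was higher in the library labelled ΔTM for 21 of them, or 45.7%, as for 45.7% of all genes tested. By role, it was higher there for 10 of 16 chaperones, 5 of 12 disulfide enzymes, 3 of 8 sensors and 3 of 10 degradation factors, and differences between roles were not tested. CALR, HSP90B1, SDF2L1, MANF, CRELD2 and PDIA4 were higher in the library labelled ΔTM, and DNAJB9, DNAJC10, SIL1 and HERPUD1 were higher in 3NQ. These values stand for 1 library each.

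Other genes of the same compartment were followed in lists that do not overlap the 48. For comparison, 3.35% of all genes tested were called higher than Luc in WT, 1.72% in 3NQ and 1.53% for the library labelled ΔTM. Of 18 genes of the translocon, signal peptidase and signal recognition particle receptor, through which proteins enter the ER, 2 were called higher than Luc in WT, 9 in 3NQ and 3 for the library labelled ΔTM, with median log2 ratios of 0.36, 0.59 and 0.28. None was called lower than Luc, where 3.30%, 2.54% and 1.57% of all genes were in the same order. For 18 genes, this lack of lower calls is near the share of all genes. SEC11C was called lower in WT than in 3NQ, as were 1.53% of all genes. SEC11C, a catalytic subunit of signal peptidase, had 20.9 FPKM in Luc and 30.8 in WT, with 52.3 in 3NQ and 43.3 for the library labelled ΔTM. SRPRB, a subunit of the receptor, had 73.0, 126, 153 and 90.0, so that it was high in WT and 3NQ and nearer to Luc in the library labelled ΔTM. SEC61G, the small channel subunit, had 175, 295, 231 and 315 and was called higher in WT and in the library labelled ΔTM. The count was highest in 3NQ, where SEC61A1, SEC61B, SEC63, SSR1, SSR3, SSR4 and SPCS2 were called higher as well. SPCS2 was also called higher in the library labelled ΔTM (log2 ratio 0.59).

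Of 8 genes of the glucose trimming and lectin cycle, among them UGGT1 and GANAB, none was called in any of the 4 comparisons. For 8 genes, this lack of calls is near the shares of all genes. The medians against Luc were 0.021, 0.16 and 0.21. Of 17 further degradation genes, 16 passed the filter, with medians of 0.096, 0.018 and 0.065. VIMP, a selenoprotein that binds VCP, was called higher in WT (log2 ratio 0.87) and in 3NQ (1.05), and SELK (0.78) in 3NQ, as well as in the library labelled ΔTM (0.69). OS9, the remaining gene, was listed at 0 in Luc and WT and at no more than 0.0692 in the other libraries.

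Of 9 genes of the PERK and ATF4 branch, 4 were called higher than Luc in WT, 3 in 3NQ and 1 for the library labelled ΔTM, with medians of 0.25, 0.35 and 0.038. Of all genes tested, 3.35%, 1.72% and 1.53% were called higher in the same order. DDIT3, which encodes the stress factor CHOP, had 10.0 FPKM in Luc, against 21.1 in WT, 20.1 in 3NQ and 19.9 for the library labelled ΔTM, so that the 3 libraries lay close together above Luc. PPP1R15A, which restarts translation, had 25.1, 52.8, 39.5 and 29.1. CHAC1 had 11.8, 23.1, 15.2 and 9.26, and SESN2 had 8.57, 16.6, 12.7 and 8.86. These last 3 genes were highest in WT and near Luc in the library labelled ΔTM, whereas for HSPA5, HYOU1 and CRELD2 that library lay above WT, as did 3NQ. ATF5 was called higher in 3NQ (log2 ratio 0.73), and ATF4 itself was called in no comparison, with log2 ratios to Luc of −0.26 in WT, −0.49 in 3NQ and −0.28 for the library labelled ΔTM.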

How the data were processed

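The study sequenced 1 poly(A) RNA library per group, prepared with a TruSeq kit. The authors discarded poor reads, aligned the rest with Tophat to GRCh37 (Ensembl release 72), and computed the deposited FPKM per gene in Cufflinks 2.1.1 with its corrections for fragment bias and for reads of several loci switched on and non-coding genes masked. Cuffdiff calls were not used here. Of a repeated symbol (166 entries) the row with the highest mean FPKM was kept, and each of the 48 symbols had 1 row. Ratios took a pseudocount of 1, and genes below an FPKM of 1 in every library were left out. With 1 library per group, a fold threshold stood in for a test. Of the 48 genes, 24 overlap another gene of the table. Neighbours with more FPKM in Luc than the called gene itself were GPR137B (3.44) for ERO1LB, and PNPLA8 (13.9) and THAP5 (15.8) for DNAJB9. The others were MATR3 (137) for SIL1, and FAU (571, on the same strand) and MRPL49 (77.4) for SYVN1. The part of these neighbours in the values was not tested. Python 3.11.15, numpy 2.4.6, pandas 2.3.3 and matplotlib 3.10.9 were used. The genes, roles, lists and threshold were chosen with earlier results of these data known. Every one of the 48 genes is accounted for, and values are given for those past 1.5-fold, for the highest, lowest and most changed of each role, and for HSPA5 and XBP1. In the other lists, genes past 1.5-fold against Luc are named. The promoter search was added after the data were seen.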

Additional observations from a re-analysis of the deposited data

How the results depend on the processing

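With 1 library per group, the spread between replicates is unknown, depth gives no interval, and no library could be left out. No paired analysis was possible because each group holds 1 library. A median was taken as moved where it shifted by 0.1 or more (log2), and a count where it changed over 1.5 times. Of 184 alternative counts and medians, 175 did not move. With a 2-fold threshold, the genes called higher than Luc numbered 3 in WT, 10 in 3NQ and 12 for the library labelled ΔTM, against 0.67%, 0.48% and 0.60% of all genes. Those of WT against 3NQ numbered 0 higher and 7 lower, against 0.49% and 0.42%. With the threshold lowered to a log2 ratio of 0.32, 15 were called higher in WT, against 11.3% of all genes. With a pseudocount of 5, none was higher in WT than in 3NQ. With no filter, which adds DERL1 and DERL3, the median of the degradation factors was 0.16 in WT and 0.20 in the library labelled ΔTM. Of 1288 alternative ratios of single genes, 9 crossed the threshold and none that was called changed sign. Besides those named above for ERN1, SYVN1 and DNAJC3, these were FKBP14 in WT (0.64) and ERN1 in 3NQ (0.64) with a pseudocount of 0.1, CALR (0.59) and TXNDC11 (0.59) in 3NQ after rescaling by the median of ratios, and ERP44 in WT against 3NQ (−0.54) with a pseudocount of 5. Besides these, the alternatives run were a filter at an FPKM of 5, the upper quartile as a scale and the sum of repeated symbols.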

Other observations

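Beyond the 48 genes, 19 other genes with ERSE or ERSE-II in the promoter window passed the filter. Of these, 1 was called higher than Luc in WT, 2 in 3NQ and 2 for the library labelled ΔTM, and none was called lower in any of the 3 libraries. Over all genes tested, 3.35%, 1.72% and 1.53% were called higher and 3.30%, 2.54% and 1.57% lower. For 19 genes, the lack of lower calls is therefore near the share of all genes. The medians of the log2 ratios of the 19 genes to Luc were −0.059 in WT, 0.099 in 3NQ and 0.14 for the library labelled ΔTM. FICD, an enzyme that switches HSPA5 off and on by adding and removing AMP, had 3.47 FPKM in Luc and 5.49 in WT, with 8.65 in 3NQ and 6.66 for the library labelled ΔTM, an order close to that of HSPA5. SERP1, which protects membrane proteins during translocation, had 134, 209, 207 and 163 and was called higher in WT and 3NQ. RAD9A, a checkpoint gene, had 6.91, 8.89, 10.5 and 10.9 and was called higher in the library labelled ΔTM. These 3 genes were chosen after their values were seen. The other 16 were called in no comparison with Luc.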
